A study of Mus musculus with 5 samples.

Results

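The histone cluster genes are the genes that the array names after the 4 histone gene clusters (names beginning with Hist1h, Hist2h, Hist3h or Hist4h). The array carried 44 probes for 34 of these genes, out of 27962 gene names in all. By class they were 6 H1, 11 H2A, 8 H2B, 3 H3 and 6 H4 genes, and 3 of them (Hist1h1t, Hist1h2aa and Hist1h2ba) are known as testis-type genes. The members were chosen by name, with no threshold on a measured value.

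Expression was measured in 5 mouse embryonic stem cell (ESC) lines, each on 1 one-colour Agilent array with Cy3-labelled total RNA. The wild-type lines were RF8, labelled male and of 129sv origin, and #620-2, labelled female and of C57BL6/129sv origin. The ECAT11EGFP/EGFP lines were #620-6, labelled female, and #757-1 and #757-2, both labelled male, all of C57BL6/129sv origin. In these cells the coding region of both ECAT11 alleles was replaced by a cassette with EGFP, an IRES and a puromycin resistance gene, and the lines other than RF8 came from blastocysts of crosses between heterozygous mice. All 5 lines were grown with serum and LIF on gelatin-coated dishes. Each line is a single derivation on a single array, so that p-values measure only the spread between these lines, and strain, sex and culture history cannot be told apart from the line. ECAT11's own transcript is not analysed here.

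Histones package DNA. A pair each of H2A, H2B, H3 and H4 makes the protein core of the nucleosome, and the linker histone H1 sits where the DNA enters and leaves it. The genes of the clusters, apart from such as the testis-type ones, are mostly replication-dependent, switched on together in S phase, when new DNA needs new nucleosomes. Most of their mRNAs lack introns and end not in a poly(A) tail but in a short stem-loop bound by the protein SLBP. How the RNA was primed for labelling is not given in the sources used here.

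Because many of these genes encode the same protein, their coding sequences are close to each other, and several 60-base probes share long stretches. The sets below are examples from genes whose signals moved in parallel, and not all such genes are shown. Left out were Hist1h3d and Hist2h3c1, whose probes share a run of 17 bases. Hist1h4a, whose longest run with another cluster gene's probe was 21 bases, was also left out. Positions are those of the array design, on mm7. Capitals mark the bases that differ from the first probe of each set or lie beyond it. Among the H2B probes, those of Hist1h2bm (chr13:21088259-21088318) and Hist1h2bk (chr13:21402048-21402107) differed at 2 of 60 bases. That of Hist3h2bb (chr11:59035740-59035799) differed from the first at 4 of 58 aligned bases, and that of the testis-type gene Hist1h2ba (chr13:23299744-23299803) at 5 of 40.
Hist1h2bm: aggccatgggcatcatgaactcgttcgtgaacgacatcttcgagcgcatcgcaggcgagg
Hist1h2bk: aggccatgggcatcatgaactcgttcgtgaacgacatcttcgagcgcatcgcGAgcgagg
Hist3h2bb: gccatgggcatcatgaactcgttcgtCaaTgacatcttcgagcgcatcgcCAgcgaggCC
Hist1h2ba: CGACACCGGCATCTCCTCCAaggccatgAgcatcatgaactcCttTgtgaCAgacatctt

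Among the H2A probes, the testis-type Hist1h2aa (chr13:23300592-23300651) shared an unbroken 44 bases with Hist1h2af (chr13:22900228-22900287) before their ends diverged.
Hist1h2af: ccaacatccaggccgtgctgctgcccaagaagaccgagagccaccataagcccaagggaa
Hist1h2aa: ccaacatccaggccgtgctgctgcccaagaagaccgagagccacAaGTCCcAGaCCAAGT

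Those of Hist1h2ak (chr13:21119757-21119816) and Hist1h2ai (chr13:21153148-21153207) differed at 5 of 60 bases.
Hist1h2ak: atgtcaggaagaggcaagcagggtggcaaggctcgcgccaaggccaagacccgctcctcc
Hist1h2ai: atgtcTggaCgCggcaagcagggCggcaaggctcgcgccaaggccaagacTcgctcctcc

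The H4 probes of Hist1h4f (chr13:22917373-22917432) and Hist1h4d (chr13:22947598-22947657) had 50 bases in common, and that of Hist2h4 (chr3:96136980-96137039) differed from the first at 4 of 49 aligned bases.
Hist1h4f: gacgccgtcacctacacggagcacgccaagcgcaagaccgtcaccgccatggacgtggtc
Hist1h4d: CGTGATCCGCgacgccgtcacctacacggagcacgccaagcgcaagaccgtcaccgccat
Hist2h4: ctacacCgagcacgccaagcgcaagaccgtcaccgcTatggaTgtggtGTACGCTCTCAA

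In all, 13 of the 44 probes held an identical run of 20 or more bases with a probe of another cluster gene (5 H2A, 3 H2B and 5 H4 probes), and signals of such genes may not be separable. Probes were compared with probes only and not with transcripts, so a short run does not show that a signal is separate. The letters of the conserved histone stem-loop were searched in the probe strand. The Hist1h3a probe held all 16 of them, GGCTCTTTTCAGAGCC, the Hist1h2ab probe ended in the first 11 (GGCTCTTTTCA), and the Hist1h2ae probe began with the last 12 (CTTTTCAGAGCC).

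Values are log2 signals, the background-corrected intensity of a probe divided by the 75th percentile of its array. Levels of different probes were not compared with each other. Of the 44 probes, 34 were well above background on all 5 arrays, and these covered 29 genes. Another 6 were well above background on none, namely both Hist2h2aa2 probes, those of Hist1h2ac and Hist1h2be, and one each of Hist1h1d and Hist4h4. The remaining 4 were measured on some arrays only (Hist1h1t on 3, Hist2h2be on 4, and one probe each of Hist1h1d and Hist1h2bc on 2). Probes called Present on at least 1 array were kept for tests, which left 38 probes of 31 genes. On the arrays of slide 1 (RF8, #620-2 and #620-6) between 36 and 38 member probes were well above background, against 35 and 34 on slide 2 (#757-1 and #757-2). All 8 ESC markers, among them Pou5f1 and Sox2, were well above background in every line. The number of arrays limits the precision.

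The comparison of the genotypes asks whether loss of ECAT11 went with a change in histone gene expression. None of the 38 kept probes passed limma's threshold, an adjusted p under 0.05 with more than 2-fold change, where 0.00345% of all 28972 kept probes did. None had an unadjusted p under 0.05 either, against 7.6% of all kept probes. The methods' t-test also made 0 calls among them after Benjamini-Hochberg adjustment, with 0 at an unadjusted p under 0.05. The 38 log2 fold changes were split into 16 above and 22 below 0, with a median of -0.02, and the median of all kept probes was also -0.02. With the brightest kept probe of each of the 31 genes, the median was -0.03. The 95% interval lay within 2-fold in either direction for 22 of the 31 genes. It reached beyond 2-fold for Hist1h1b, Hist1h1t, Hist3h2a, Hist1h4i and 5 H2B genes, so that a change of that size lay within the error there.

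The class medians (brightest probe of each gene) were -0.18 for H1, -0.07 for H2A, 0.14 for H2B and 0.01 for both H3 and H4. Slide 1 held both genotypes and slide 2 the ECAT11EGFP/EGFP genotype alone. With the slide as a block, which leaves #620-6 against RF8 and #620-2, the H1 median was 0.17 and that of H2B 0.61, again with 0 calls (smallest adjusted p from limma 0.545). The sign of the H1 median, and of that of all members (0.10), thus turned with the slide.

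**Figure D1:**
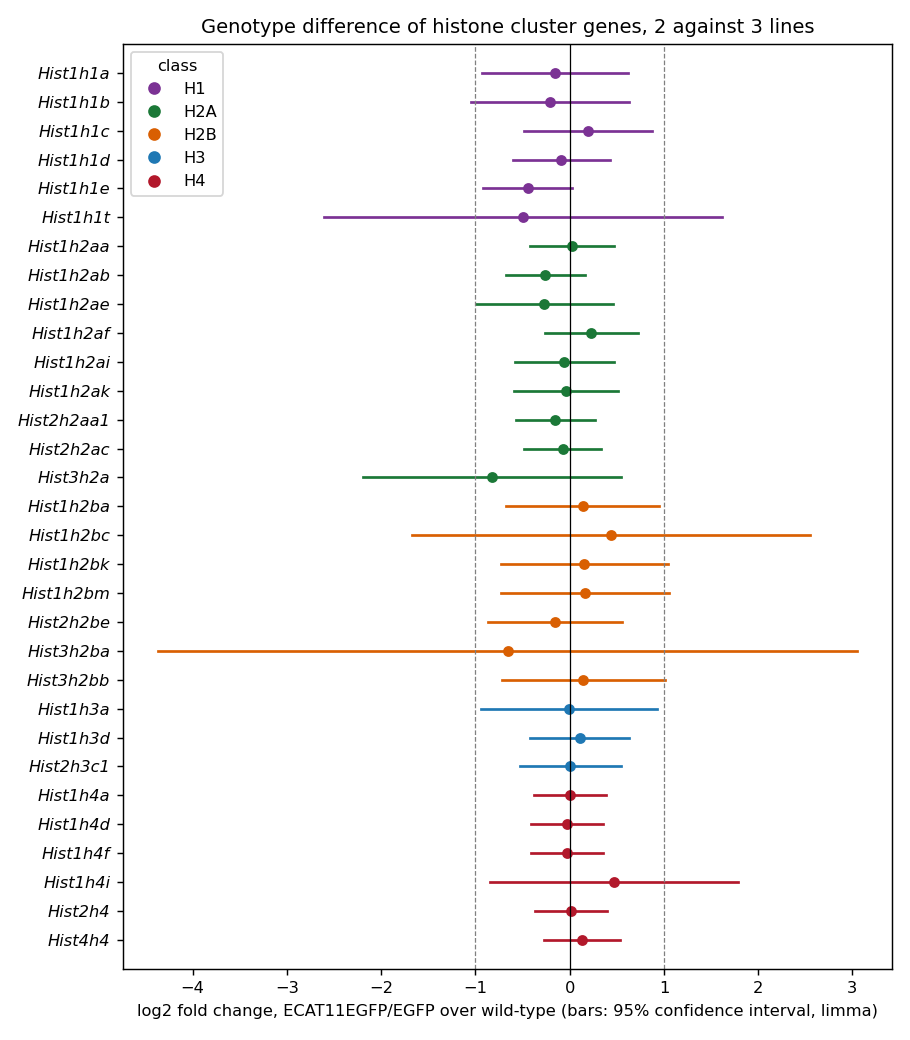
Log2 fold change of ECAT11EGFP/EGFP over wild-type ESCs for the brightest kept probe of 31 histone cluster genes, coloured by class; bars are 95% confidence intervals from limma (2 against 3 lines), and dashed lines mark 2-fold. All 31 intervals include 0, and 9 reach beyond 2-fold.

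None of the 38 kept member probes had all ECAT11EGFP/EGFP lines above both wild-type lines (11.4% of all kept probes did), and 3 had them all below (background 12.1%). The linker histone gene Hist1h1e had the smallest unadjusted p of the members. RF8 gave a log2 signal of 0.80 and #620-2 of 0.47, against 0.30 for #620-6 and 0.13 for both #757-1 and #757-2. The groups did not overlap, and the difference of -0.45 ± 0.18 (SE) had an adjusted p of 0.683 with limma. Hist1h2ab, an H2A gene, stood at 1.40 and 1.15 in RF8 and #620-2 and at 1.07, 1.03 and 0.96 in #620-6, #757-1 and #757-2, again without overlap (limma adjusted p = 0.829). The other probe without overlap was the upstream one of Hist1h4d (chr13:22947440-22947499), at 2.64 in RF8 and between 2.16 and 2.20 in the other lines, and thus high in RF8 only. The other Hist1h4d probe, which shares 50 bases with that of Hist1h4f, did not show this (4.73 in RF8, 4.61 to 4.76 elsewhere).

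The linker histone genes are expressed as several subtypes in dividing cells. Hist1h1a was higher in RF8 (0.93) and #620-6 (0.77) than in #620-2, #757-1 and #757-2 (0.27, 0.27 and 0.28). Hist1h1b stood at 2.71 in RF8 and between 1.77 and 2.17 in the others, and Hist1h1c at 0.84 in #620-6 and between 0.15 and 0.32 in the others. Hist1h1d differed least of the 5 somatic H1 genes, between -1.30 in #757-1 and -0.88 in #620-6. The highest line was RF8 for Hist1h1a, Hist1h1b and Hist1h1e, and #620-6 for the other two, so the H1 genes did not share a single order of lines.

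Several core histone genes of a class shared an order of lines. Among H2B genes, Hist1h2bm stood at 2.25 in RF8, 2.81 in #620-2, 3.16 in #620-6, 2.30 in #757-1 and 2.60 in #757-2. Hist1h2bk (2.22, 2.74, 3.12, 2.25 and 2.53) and Hist3h2bb (2.02, 2.49, 2.87, 2.00 and 2.33, in the same order of lines) ran parallel to it, and their probes share most of their bases. Hist3h2bb is a transcribed pseudogene in RefSeq. Parallel to them were also Hist1h2ba (1.05, 1.51, 1.85, 1.06 and 1.35), whose probe shares no run over 14 bases with theirs, and the second Hist1h2bk probe (0.80, 1.29, 1.70, 0.91 and 1.11), also with no run over 14. The Hist1h2ba probe still matched that of Hist1h2bm at 35 of 40 aligned bases, and the second Hist1h2bk probe covers another stretch of its gene. Runs were counted between probes only, so the part of other H2B transcripts in these signals was not tested. In each of these 5 probes #620-6 was highest, followed by #620-2 and then #757-2. This order put a wild-type line between ECAT11EGFP/EGFP lines, and no H2B gene had separate groups.

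Apart from Hist1h4i, the H4 genes varied little (median span of the class 0.16, against 0.39 to 0.91 in the others). Hist1h4a, Hist1h4d (brightest probe), Hist1h4f and Hist2h4 spanned 0.155 to 0.162 on the log2 scale over the 5 lines, from their lowest line to their highest. For comparison, the span had a median of 0.49 over the 34 member probes and 0.60 over all probes well above background on all 5 arrays. Hist1h4f, for example, stood at 5.25 in RF8, 5.22 in #620-2, 5.30 in #620-6, 5.14 in #757-1 and 5.17 in #757-2. Hist4h4, the gene outside the large clusters on chromosome 6, spanned 0.26 (1.71, 1.80, 1.97, 1.77 and 1.92 in the same order). The limma interval of these genes was narrow as well, from -0.41 to 0.36 for Hist1h4f and from -0.27 to 0.53 for Hist4h4. #620-6 was the highest line for all 6 H4 genes, and for 5 of 6 after quantile normalization. It was highest for 20.3% of all 20609 probes well above background on all 5 arrays, and several H4 probes share sequence.

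Among H3 genes, Hist1h3d stood at 6.26 in RF8, 5.90 in #620-2, 6.29 in #620-6, 5.99 in #757-1 and 6.27 in #757-2, and Hist2h3c1 at 6.94, 6.55, 6.85, 6.57 and 6.84. Both were lower in #620-2 and #757-1 than in the other 3 lines. Their probes share a run of 17 bases. Hist1h3a, whose probe holds the stem-loop letters, went another way, with -0.35 and -0.19 in #620-2 and #620-6 and -1.003, -1.03 and -0.84 in RF8, #757-1 and #757-2.

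For H2A, 6 of the 9 genes measured in every line were highest in RF8. Of all 20609 probes well above background on all 5 arrays, 24.9% were highest in RF8. The H2A count is not over independent genes, since the probes of Hist1h2ak and Hist1h2ai share sequence. The probes of Hist1h2ai and Hist2h2ac are listed on the strand opposite to their genes' promoters, and which transcripts they read was not tested. That of Hist2h2ac also shares 51 bases in a row with an array probe outside the cluster genes. Hist1h2ak stood at 5.63 in RF8, 5.23 in #620-2, 5.20 in #620-6, 5.51 in #757-1 and 5.46 in #757-2, and Hist1h2ai at 4.55, 4.15, 4.14, 4.40 and 4.36. Hist2h2aa1 stood at 1.58 in RF8 and between 1.24 and 1.32 in the others, and Hist2h2ac spanned 0.27, between 7.68 in #620-6 and 7.94 in RF8. Hist1h2af was highest in #757-1 (7.72) and #757-2 (7.61), against 7.30 to 7.33 in the others. A second Hist1h2af probe did not show this, at 6.36 in RF8, 5.99 in #620-2, 5.955 in #620-6, 6.35 in #757-1 and 6.23 in #757-2. Hist1h2ae went another way, higher in #620-2 (-0.94) and #620-6 (-1.09) than in RF8 (-1.43), #757-1 and #757-2 (both -1.64).

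Lines whose names share a number were compared next, each without replication. From #620-2 to #620-6, which differ in genotype, the signal was higher in #620-6 for 6 of 6 H4, 3 of 3 H3 and 5 of 6 H2B genes, and lower for 7 of 9 H2A genes. From #757-1 to #757-2, of one genotype, it was higher in #757-2 for 6 of 6 H4, 3 of 3 H3 and 6 of 6 H2B genes and lower for 8 of 9 H2A genes. The median steps were small, 0.07 and 0.08 for H4, 0.30 and 0.27 for H3, 0.35 and 0.28 for H2B, and -0.03 and -0.07 for H2A, the first value of each being that of #620-2 and #620-6. Over all 20609 probes the median absolute difference was 0.23 between #620-2 and #620-6 and 0.15 between #757-1 and #757-2. The H4 and H2A steps were smaller in size than these. The share of all probes that were higher or lower in the second line is not given here. After quantile normalization the H2A count between #757-1 and #757-2 fell to 5 of 9 and the H4 count between #620-2 and #620-6 to 5 of 6, while normexp and the deposited table moved no class count by more than 2 genes. Most H2B, H3 and H4 genes were higher in the second line of both pairs, with Hist3h2ba as the exception between #620-2 and #620-6. The cause of these steps was not tested. The direction for H2A between #757-1 and #757-2 rests on the scaling. Because members of a class share sequence, these counts are not over independent genes. None of the 34 member probes differed by more than 2-fold within either pair, against 5.84% of all 20609 probes between #620-2 and #620-6 and 1.72% between #757-1 and #757-2. In every other pair of lines 3 or 4 of the 34 did, where between 5.3% and 12.6% of all probes did.

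**Figure D2:**
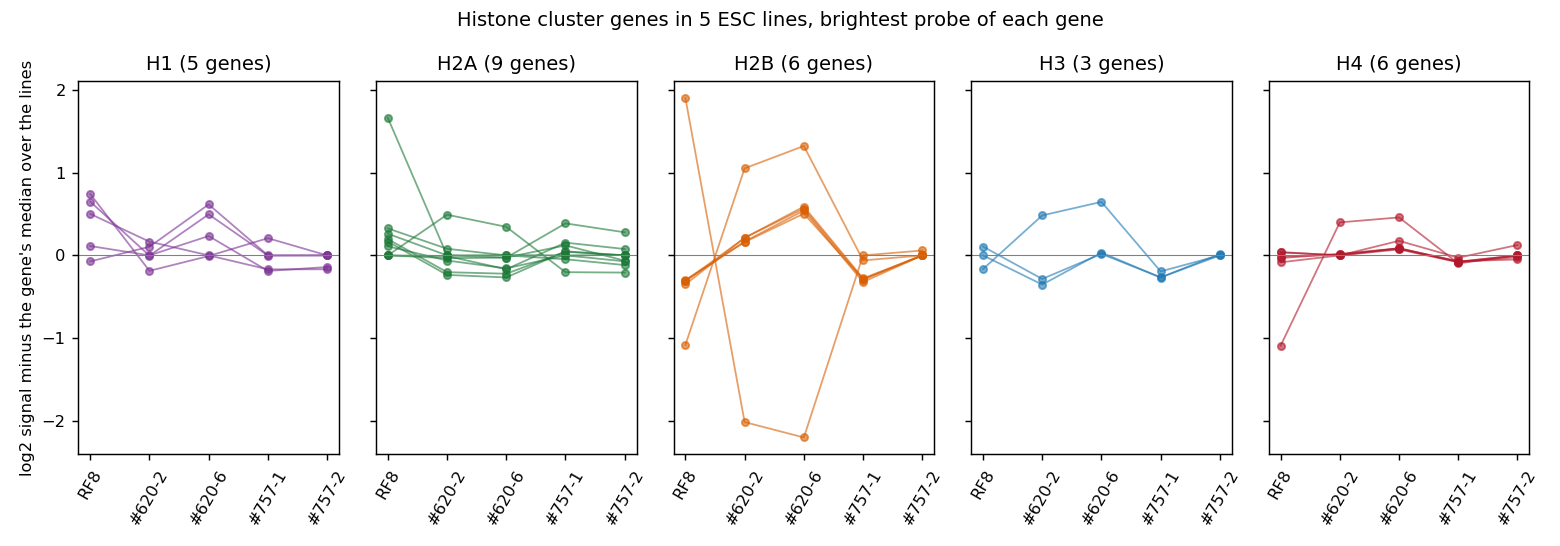
Log2 signal of the brightest probe of 29 histone cluster genes (those well above background on all 5 arrays) minus the gene's median over the lines, 1 panel per class and 1 connected set of points per gene; points are single arrays with no error. H4 genes other than Hist1h4i lie almost flat, 4 H2B genes run in parallel with #620-6 highest, and single genes in H2A, H2B and H4 stand off in RF8.

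Of the 34 probes, 5 spanned more than 2-fold over the lines, in 4 genes, where 23.5% of all 20609 such probes did. Without RF8 there were 3. The probe just outside this limit was that of Hist1h1b, with a span of 0.93, and the one just inside the downstream Hist3h2a probe, with 1.38.

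Hist3h2ba, an H2B gene of the Hist3 cluster on chromosome 11 (probe at chr11:59030991-59031050), differed most. RF8 gave a log2 signal of 0.59, #620-2 one of -3.33, #620-6 of -3.52, #757-1 of -1.31 and #757-2 of -1.25. RF8 was highest, #757-1 and #757-2 lay between, and #620-2 and #620-6 were lowest, 17.2-fold apart from top to bottom. The wild-type lines lay 3.92 apart, #620-2 and #620-6 only 0.19, and the genotype groups overlapped (log2 fold change -0.66 ± 1.41 (SE), limma adjusted p = 0.971). Its probe had no run over 7 bases in common with any other cluster gene's probe. Without RF8 the sign of its fold change turned (1.30).

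Hist1h2bc, an H2B gene of the large cluster on chromosome 13 (chr13:23058152-23058211), had the reverse order. It stood at -1.18 in RF8, -0.15 in #757-1, -0.09 in #757-2, 0.96 in #620-2 and 1.23 in #620-6. The mean of #620-2 and #620-6 lay 4.83-fold above RF8 and 2.33-fold above that of #757-1 and #757-2. A second probe under this name lies at another place (chr13:21203334-21203393) and was well above background on 2 arrays only. Hist1h4i, the one H4 gene that varied, followed the same order (1.35 in RF8, 2.35 and 2.45 in #757-1 and #757-2, 2.84 and 2.90 in #620-2 and #620-6). The location listed for its probe covers only a few bases, so no position is given.

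Hist3h2a, the H2A gene of the Hist3 cluster, had 3 probes, which differed in their order of lines. Its brightest probe (chr11:59036430-59036489) read 7.02 in RF8 and between 5.29 and 5.48 in the other 4 lines, 3.20-fold above the mean of #620-2 and #620-6 and 3.11-fold above that of #757-1 and #757-2. Downstream (chr11:59036997-59037056), a probe read 0.72 in #620-2, 0.59 in #620-6, -0.15 in RF8, -0.48 in #757-1 and -0.66 in #757-2. The remaining one (chr11:59036261-59036320), designed on another transcript, holds the reverse complement of 17 bases of the Hist1h2ai probe and spanned 0.51. It is listed on the minus strand, opposite to the other probes and to the promoter of the gene, and so is not read as a measure of its mRNA. Among probes well above background in every line, those of Hist1h2ai and Hist2h2ac were also listed opposite to their genes' promoters. Only the first set RF8 apart by more than 2-fold, so the direction for this gene depends on the probe.

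**Figure D3:**
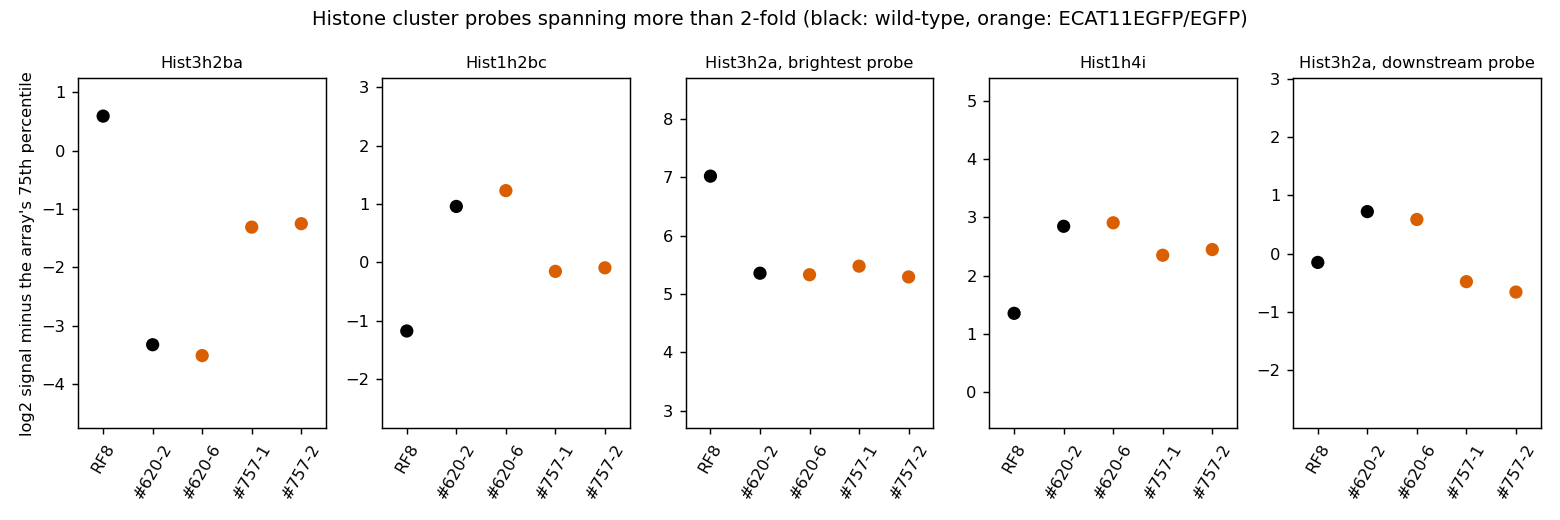
Log2 signal (minus the array's 75th percentile) in each line for the 5 histone cluster probes that span more than 2-fold, on axes of equal length; each point is 1 array with no error, black for wild-type and orange for ECAT11EGFP/EGFP. The wild-type lines RF8 and #620-2 lie apart in the 4 genes, and #620-2 lies close to #620-6 in every panel.

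Beside these differences the summed signal of 9 fibroblast marker genes, in units of the 75th percentile, was 66.13 in #620-2 and 68.95 in #620-6, against 24.95 in RF8, 11.47 in #757-1 and 13.23 in #757-2. Between 8 and 9 of them were well above background per line. One gene, S100a4, gave most of the sum in #620-2 and #620-6 (48.87 and 52.06), and the other 8 genes summed to 23.99 in RF8, 17.25 in #620-2, 16.89 in #620-6, 11.16 in #757-1 and 12.85 in #757-2, with RF8 highest. The list thus showed no single order of lines. That of 9 markers of differentiated lineages was 60.64 in RF8 and between 16.31 and 33.99 elsewhere, with between 5 and 9 detected. Krt18, a keratin gene, gave 54.3 of the sum in RF8, and the other 8 genes summed to 6.336 in RF8 and between 1.458 and 4.829 elsewhere, while Gata6 and Sox17 were highest in #620-2. The part of either, or of the ESC marker levels, in the differences of Hist1h2bc, Hist3h2ba, Hist3h2a and Hist1h4i was not tested. In such bulk RNA, fewer expressing cells and less RNA per cell cannot be told apart.

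All 5 wide probes were among the 31 that hold no identical run of 20 bases with another cluster gene's probe. Of the 31, 21 were well above background on all arrays, with a median span of 0.69. The 13 probes with such a run were all well above background in every line, with a median span of 0.42, from 0.15 to 0.92, and 0 over 2-fold. The part of shared sequence in these spans was not tested.

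**Figure D4:**
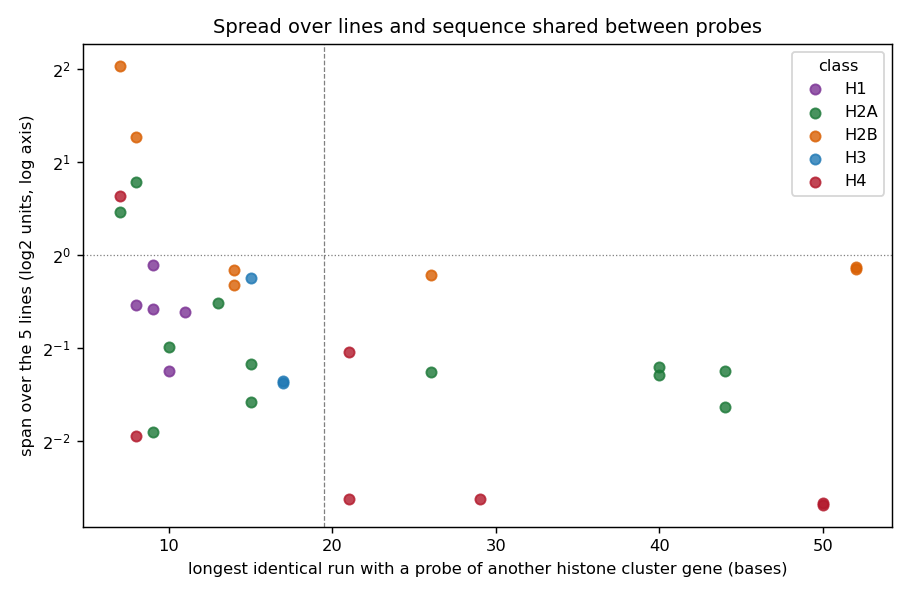
Span over the 5 lines (highest minus lowest log2 signal, on a log axis) against the longest identical run with a probe of another histone cluster gene, in bases, for the 34 probes measured well above background in every line; the dashed line marks 20 bases and the dotted line a 2-fold span. The 5 probes above 2-fold share runs of 7 or 8 bases.

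Of the testis-type genes, which encode histones of the male germ line, 2 had probes well above background in every ESC line. Hist1h2aa stood at 7.73 in RF8, 7.72 in #620-2, 7.56 in #620-6, 7.88 in #757-1 and 7.80 in #757-2, but its probe has 44 bases in common with Hist1h2af, which is no testis-type gene. Hist1h2ba, given above, followed the other H2B genes. Its probe matches that of Hist1h2bm, which is no testis-type gene, at 35 of 40 aligned bases, so its signal may not be separable from theirs. Hist1h1t, the testis H1, had a probe with no run over 9 bases in common with others, and stood at -4.96 in RF8, -4.01 in #620-2 and -3.77 in #620-6, the only lines where it was well above background. For #757-1 (-6.23) and #757-2 (-4.95) it did not reach that mark, and the lowest signal that did on those arrays was -4.49 and -4.22. Of 14 other genes of sperm chromatin and germ cells, 13 were kept and 6 were well above background on all arrays, with 11 to 13 on the arrays of slide 1 and 6 on each array of slide 2. None was called (0 of 13 with limma, 5 higher and 8 lower, median -0.12). With an unadjusted p under 0.05 there was 1, named after its value was seen, the meiotic chromosome protein gene Sycp3, with a difference of -0.95 ± 0.15 (SE) and an adjusted p of 0.346 with limma.

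Genes that make and handle histone mRNA and protein gave no calls between the genotypes. Of 20 factors for histone mRNA transcription and processing (SLBP, NPAT and the cleavage complex among them), 0 were called, 10 were higher and 10 lower, and the median was 0.01. Slbp itself stood at 4.498 in RF8, 4.52 in #620-2, 4.42 in #620-6, 4.78 in #757-1 and 4.71 in #757-2. Of 19 histone chaperone genes 0 were called, 12 higher and 7 lower, with a median of 0.06. Of 13 histone genes outside the clusters, which code for variants such as H3.3 and H2A.Z, 0 were called, 7 higher and 6 lower, with a median of 0.02. Of 24 genes of DNA replication and S phase 0 were called, 18 higher and 6 lower, with a median of 0.09, and their summed signal ran from 693 in RF8 to 768 in #757-1. Among all kept probes 13721 were higher and 15251 lower, with a median of -0.02. Whether the split of any list differs from that was not tested. An unadjusted p under 0.05 was reached by Sympk (0.56 ± 0.21 (SE), limma adjusted p = 0.653) of the first list and Gins2 (-0.45 ± 0.16 (SE), limma adjusted p = 0.61) of the last, both named after their values were seen.

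The promoters of the cluster genes are known for a few short elements. An octamer, ATTTGCAT, is bound by factors of the Oct family, a CCAAT box by NF-Y, and a TATA box, here TATAAA, places the start of transcription. These letters were searched on both strands in RefSeq windows of GRCm38.p6 from 250 bases before to 50 after the start, found for 29 of the 34 genes as 30 promoters. The octamer stood in 10 of them (33.3%), against 1.74% of all 32851 promoters. By class these were 6 of 11 H2A and 4 of 6 H2B promoters, and 0 of 6 H1, 0 of 2 H3 and 0 of 5 H4 promoters. In 5 of the 6 H2A promoters its first base lay between positions -130 and -119 from the start, and in that of Hist2h2ac at -200. The H2B positions were spread from -164 in Hist1h2ba and -67 in Hist1h2be to -30 in Hist1h2bk and -25 in Hist1h2bm. The 10 promoters hold 9 separate stretches, since the testis-type genes Hist1h2aa and Hist1h2ba lie head to head and share the octamer at chr13:23934313-23934320. CCAAT was found in 90.0% of the member promoters (37.4% of all) and TATAAA in 63.3% (13.6% of all). These shares count a match anywhere in the window. The only TATAAA lay at -250 in Hist1h4f and at 41 in Hist1h4a, for example, so 63.3% is not the share with a TATA box placed before the start.

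The 250 bases before the start are shown for both variable Hist3 genes and for Hist1h2bm of the parallel H2B group, with matches to the 3 motifs on either strand in capitals. They lie on the plus strand at chr11:58948661-58948910 (Hist3h2ba, H2bu2 in RefSeq), chr11:58954435-58954684 (Hist3h2a, H2aw) and chr13:21721794-21722043 (Hist1h2bm, H2bc14).
Hist3h2ba: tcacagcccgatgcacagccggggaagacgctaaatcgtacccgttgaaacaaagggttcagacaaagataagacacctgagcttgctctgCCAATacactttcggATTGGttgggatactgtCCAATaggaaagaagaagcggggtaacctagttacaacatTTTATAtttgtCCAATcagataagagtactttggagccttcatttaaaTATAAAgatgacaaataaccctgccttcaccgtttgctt
Hist3h2a: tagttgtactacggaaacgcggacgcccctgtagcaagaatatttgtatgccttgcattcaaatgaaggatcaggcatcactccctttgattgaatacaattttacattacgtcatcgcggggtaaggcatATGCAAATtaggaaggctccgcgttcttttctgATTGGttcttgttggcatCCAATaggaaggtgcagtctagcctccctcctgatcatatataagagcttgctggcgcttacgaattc
Hist1h2bm: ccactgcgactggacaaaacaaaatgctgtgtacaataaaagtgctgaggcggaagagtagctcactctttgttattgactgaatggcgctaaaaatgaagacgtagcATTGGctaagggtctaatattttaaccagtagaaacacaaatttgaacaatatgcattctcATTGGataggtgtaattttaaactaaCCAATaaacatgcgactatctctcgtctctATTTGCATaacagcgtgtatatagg

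Hist3h2ba held CCAAT and TATAAA matches and no octamer letters in this window, Hist3h2a an octamer and CCAAT, and Hist1h2bm an octamer at -25 together with CCAAT. A match is a description of the sequence and not evidence that a factor binds there.

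**Figure D5:**
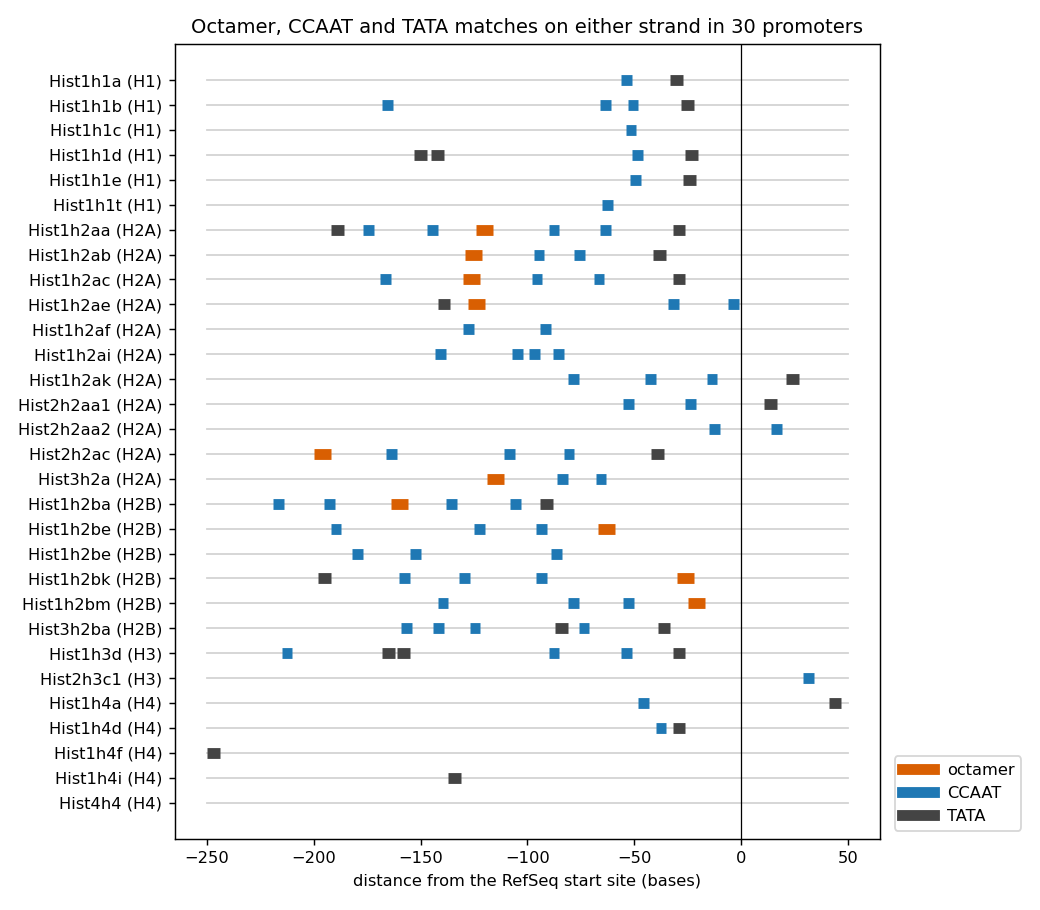
Octamer, CCAAT and TATA matches on either strand in 30 promoters of 29 histone cluster genes, by distance in bases from the RefSeq start site; grey lines are the windows searched and coloured blocks the matches. Octamers lie in H2A and H2B promoters alone, 10 in all.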

How the data were processed

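RNA of 2 wild-type and 3 ECAT11EGFP/EGFP ESC lines was hybridized to 5 one-colour arrays. Per the file headers the arrays were read by the authors with Feature Extraction 9.5.3.1, and the deposited intensity of each spot is background-corrected but not normalized between arrays. A second deposited table, of log2 values with a constant taken off each probe, served as an alternative. Differences between arrays had a slope of 1.00 between both sources over 20609 probes. Each intensity was divided by its array's 75th percentile (687.5 to 794.4), following the authors, and converted to log2. Control and marked spots were left out and spots of a probe averaged (41174 probes, 28972 Present on at least 1 array). The genotype fit used limma 3.58.1 (R 4.3.3), and p-values were adjusted after Benjamini-Hochberg over all kept probes. The code was tested on simulated data. An exact permutation of 2 against 3 lines reaches no p below 0.1. Sequences were compared in Python 3.11.15 with pandas 2.3.3. RefSeq names matched 44 of 44 probes, 36 by accession and 8 by symbol. Probe positions are on mm7 per the file headers, and its gene models were not used here.

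Genes named were, per class, the 4 with the smallest p and the 2 with the largest span, the testis-type genes and those of Hist3 and Hist4. Other genes are named to account for every member or for a low count. The members, gene lists and markers were chosen with earlier results of these data known. Alternatives were normexp (offset 50), quantile normalization, the second table, no filter and a stricter one (3 arrays), marked spots kept, slide as a block, sex label, a variance trend, other tests and thresholds, all probes of a gene averaged, and leaving out each line. The number in the line names as a block, and marker sums without their brightest gene, were added after seeing the data.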

Additional observations from a re-analysis of the deposited data

How the results depend on the processing

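The 0 calls among the histone cluster probes stood at 0 under every alternative run for that count, with between 0 and 4 probes at an unadjusted p under 0.05 (4 without #620-2). Medians kept within the spread between lines of a genotype except as follows. With the slide as a block the median log2 fold change was 0.10 for all members, 0.17 for H1, 0.61 for H2B, 0.21 for H3, 0.088 for H4 and 0.57 for the testis-type genes. Leaving out each line in turn gave medians from -0.08 to 0.01 for all members, -0.32 to 0.04 for H1, -0.24 to 0.011 for H2A, -0.11 to 0.38 for H2B, -0.072 to 0.20 for H3, -0.04 to 0.05 for H4 and -0.09 to 0.13 for the testis-type genes. Probes with separate genotype groups numbered 5 after quantile normalization, where Hist2h2aa1 and Hist2h2ac joined, all lower. Probes spanning more than 1.5-fold numbered 16 and more than 4-fold 2. The number over 2-fold lay between 3 (without RF8) and 5 with a line left out. The cause of these shifts was not tested.

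No named gene was called under any alternative, and 52 of 330 log2 fold changes had another sign than the main value. With the slide as a block these were Hist1h1t (0.72), Hist1h2aa (-0.16), Hist1h2ae (0.10), Hist1h2af (-0.012), Hist1h3a (0.49), Hist1h4d (0.051), Hist1h4f (0.068) and Hist2h2be (0.28). With normexp they were Hist1h1t (0.035), Hist2h2be (0.032) and Hist2h3c1 (-0.01), with quantile normalization Hist1h2aa (-0.054), Hist1h3a (0.008) and Hist2h3c1 (-0.078), with the deposited table Hist2h3c1 (-0.001), and with the sex label Hist1h2aa (-0.002), Hist1h3a (0.11) and Hist2h3c1 (-0.007). With a line left out, the value ran from -0.68 to 0.25 for Hist1h1b, -0.015 to 0.29 for Hist1h1c, -1.10 to 0.13 for Hist1h1t, -0.041 to 0.12 for Hist1h2aa, -0.09 to 0.37 for Hist1h2ba, -0.63 to 1.504 for Hist1h2bc, -0.12 to 0.44 for Hist1h2bm, -0.33 to 0.32 for Hist1h3a, -0.072 to 0.28 for Hist1h3d, -0.072 to 0.005 for Hist1h4d, -0.078 to 0 for Hist1h4f, -0.28 to 1.21 for Hist1h4i, -0.37 to 0.005 for Hist2h2be, -0.19 to 0.20 for Hist2h3c1, -1.65 to 0.01 for Hist3h2a, -2.62 to 1.30 for Hist3h2ba and -0.093 to 0.38 for Hist3h2bb. The number in the line names (620, 757, RF8 alone) was also taken as a replicate block, an alternative chosen after seeing the data, in which the genotype difference is that of #620-6 over #620-2 and 1 degree of freedom remains. The block left the count of calls at 0 (smallest adjusted p from limma 0.45) and gave medians of 0.086 for all members, 0.241 for H1 and 0.303 for H3. Signs turned under it for Hist1h1b (0.179), Hist1h1t (0.248), Hist1h2aa (-0.16), Hist1h3a (0.164), Hist1h4d (0.072), Hist1h4f (0.086) and Hist2h2be (0.302). The arrays of slide 2 had a higher detection limit than those of slide 1, which touches dim probes such as that of Hist1h1t.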
